A study of Mus musculus with 3 samples.

Results

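Genes of iron and heme handling were followed in skin macrophages through the resting phase (telogen) of the second hair cycle: Tfrc, Slc11a1, Fth1, Ftl1, Slc40a1, Cp, Hmox1, Alas1, Alas2, and Lcn2. They were chosen by name for their roles, and they are 10 of the 19752 genes that could be named on the array. The cells came from the backskin of CD1 mice, for which the labels name no treatment, and were isolated by FACS as CD11b+Gr1−F4/80+ cells at 42 (early telogen, Te), 55 (mid telogen, Tm), or 69 days of age (late telogen, Tl). RNA of 3 littermates was pooled at each stage, amplified as a whole transcriptome, labeled with Cy3, and hybridized to 1 Agilent array.

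Macrophages take up iron bound to transferrin and, by engulfing dying red cells, iron held in heme. Heme oxygenase opens the heme ring and frees the iron, ferritin stores it in the cytosol, and ferroportin carries it out of the cell. Heme itself is built in a pathway that starts and ends in mitochondria, and 5-aminolevulinate synthase catalyzes its first step.

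Each stage was represented by 1 array, so no difference between stages could be set against a spread between replicates, and no test between stages was possible. A level is the log2 intensity of a probe relative to the 75th percentile of its array, a change is the difference of this level between arrays, and a gene with several probes is represented by the brightest. A change of 2-fold or more is called higher or lower. The arrays hold 1 measure of error, the SD of repeated spots (spot error), which was 0.17 (log2) for Tm minus Te, 0.17 for Tl minus Te, and 0.16 for Tl minus Tm. This error does not include the variation between mice or between amplifications. The 3 arrays differed in overall brightness, with a 75th percentile of 414 intensity units at Te, then 497 at Tm and 927 at Tl, and between 59.6% and 71.4% of the 55681 probes were well above background. The median change of all genes was 0.22 at Tm and 0.15 at Tl relative to Te. The assignment of the later arrays is not settled: the log2 table deposited by the authors has the values of the Tl scanner file under Tm and those of the Tm file under Tl, with a residual SD of 4.05e-07 and 3.89e-07 (log2) over 36380 probes. The scanner files were used as assigned, and all values given for Tm and Tl exchange places if the table is right. Te is the same in both.

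The sorting markers of the cells lay above the 75th percentile on all arrays. The F4/80 gene Adgre1 had levels of 4.83 at Te, then 5.51 at Tm and 5.15 at Tl, and the CD11b gene Itgam had levels of 8.95, 8.73, and 7.85. All 15 measured macrophage markers were well above background on every array. Their summed signal was 956 at Te, then 836 at Tm and 585 at Tl times the 75th percentile. Without Itgam, the brightest, it was 462, 412, and 354. Itgam changed by −1.1 from Te at Tl, past 2-fold. Such sums depend on the scaling of the array. RNA of a sorted pool is a bulk measurement, in which fewer cells of a type and less RNA per cell cannot be told apart.

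All 14 probes of the 10 genes were well above background on the 3 arrays. At Tm, 3 genes were higher than at Te (Alas2, Lcn2, and Alas1, whose probes disagree) and 3 were lower (Hmox1, Slc40a1, and Cp), beside 29.2% of all genes higher and 16.9% lower. At Tl, 2 genes were higher than at Te (Alas1 and Alas2) and 0 were lower, beside 22.3% and 21.1% of all genes. Between the later arrays, 2 genes were higher at Tl than at Tm (Slc40a1 and Cp), beside 7.85% of all genes, and 2 were lower (Alas2 and Lcn2), beside 11.3%. The median change of the 10 genes was −0.09 at Tm and −0.34 at Tl relative to Te. The genes thus did not move as 1 group, and their counts from Te were of the order of those of all genes.

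**Figure D1:**
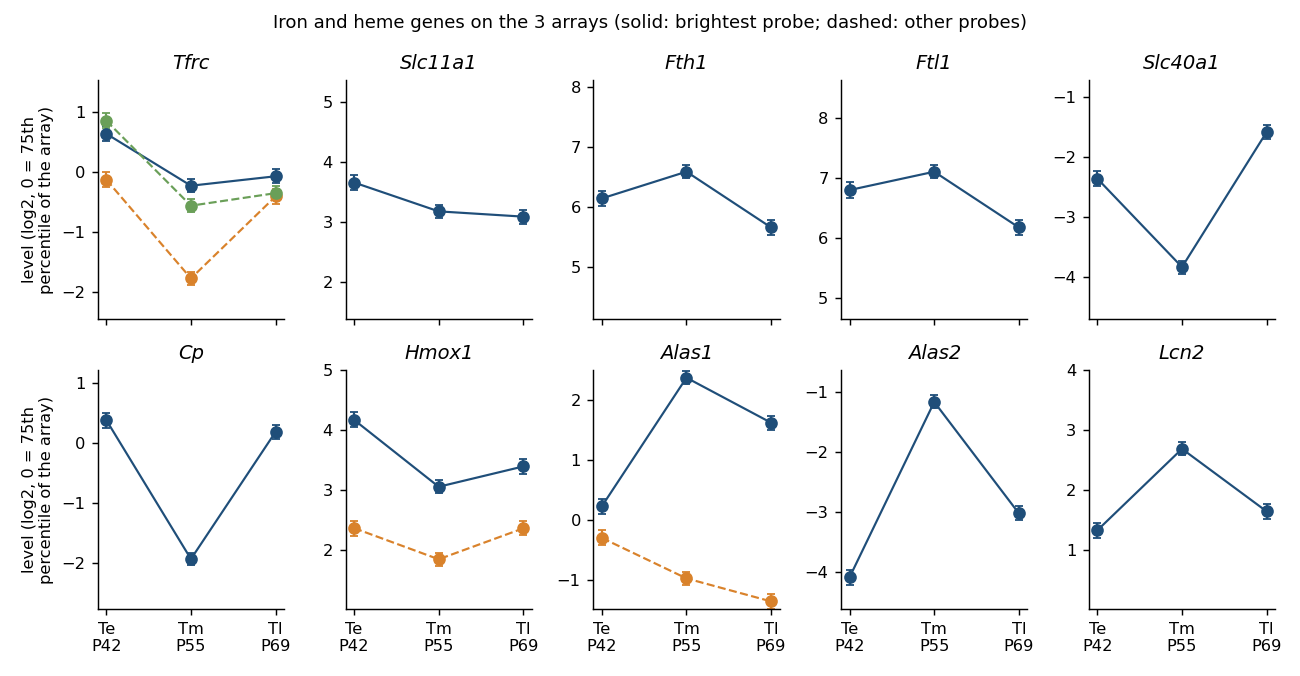
Level of each probe of the 10 genes on the Te, Tm, and Tl arrays (log2 intensity relative to the 75th percentile of the array, 1 array per stage, axis of equal span but different position in each panel). Solid lines are the brightest probe, dashed lines are other probes of the gene, and bars are the SD of repeated spots of the array. Slc40a1 and Cp were lowest at Tm, Alas2 and Lcn2 were highest at Tm, and the probes of Alas1 ran in opposite directions.

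Iron uptake was represented by Tfrc and Slc11a1. Tfrc encodes the transferrin receptor, and its transcript is stabilized when cytosolic iron is low. The brightest Tfrc probe, printed 10 times on each array, had levels of 0.64 ± 0.05 at Te, then −0.23 ± 0.09 at Tm and −0.07 ± 0.07 at Tl (SD over 10 spots of 1 array). This probe was highest at Te, with changes of −0.87 at Tm and −0.71 at Tl, and the later arrays differed by 0.16. On unscaled intensities the change at Tl turned to 0.45. The other Tfrc probes were also highest at Te. One had levels of 0.85, −0.57, and −0.36 and the other −0.13, −1.78, and −0.41, so that the change at Tm was −1.42 and −1.65 and passed 2-fold. At Tl the 3 probes of Tfrc ranged from −0.28 to −1.21, and 1 of them passed 2-fold.

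Slc11a1 encodes NRAMP1, which moves divalent metals out of the phagosome of macrophages. Its levels were 3.65 at Te, then 3.17 at Tm and 3.08 at Tl. The changes of −0.48 and −0.57 from Te were 2.90 and 3.28 times the spot error and did not reach 2-fold, and their direction turned with median scaling at Tm (0.08) and on unscaled intensities at Tl (0.59). The difference of −0.09 between the later arrays was smaller than the spot error.

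Iron storage was represented by Fth1 and Ftl1, the heavy and light chains of ferritin. The heavy chain oxidizes iron and the light chain favors its mineralization in the shell. Fth1 had levels of 6.15 at Te, then 6.59 at Tm and 5.66 at Tl, and Ftl1 had levels of 6.81, 7.11, and 6.18. Both chains were highest at Tm and lowest at Tl. Their changes from Te at Tm were 0.45 and 0.31, and at Tl −0.48 and −0.62. These directions depended on the scaling: at Tm the change of Ftl1 was −0.07 when the percentile was taken over probes detected on all arrays, and at Tl quantile normalization gave 0.16 for Fth1 and 0.13 for Ftl1, median scaling gave 0.04 and −0.10, and unscaled intensities gave 0.68 and 0.54. The difference between both chains does not depend on a scaling by 1 factor per array. Fth1 changed by 0.14 (log2) more than Ftl1 at Tm and by 0.14 at Tl, and from Tm to Tl the change was −0.93 for both chains, with a difference of −0.0013 between them. All 3 differences were smaller than the spot error. Methods that act on each intensity separately moved it, with changes at Tm of 0.23 for Fth1 and 0.41 for Ftl1 under quantile normalization and of 0.55 and 0.29 under normexp background correction. Of 14849 genes, 13.4% had a lower change from Tm to Tl than either chain. This change stayed negative under the 10 alternatives of scaling, background, and filtering that keep the array assignment, with the value nearest to 0 on unscaled intensities (−0.03 for each chain). For a gene with 1 probe that was detected on all arrays, the filters and the median over probes cannot change a value. Keeping outlier spots hardly moves it, so only the scalings and normexp bear on such a gene.

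**Figure D2:**
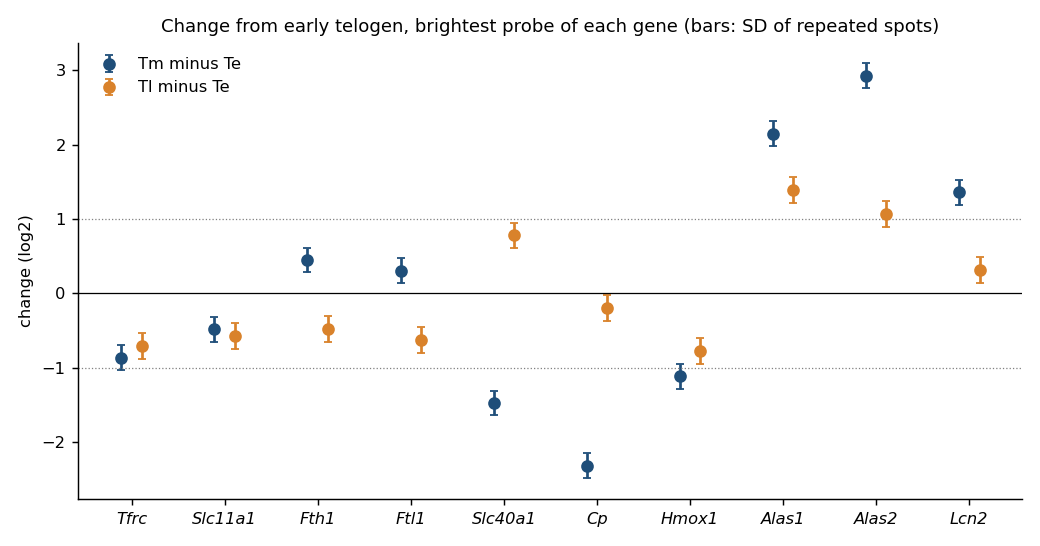
Change from Te of the brightest probe of each gene (log2) at Tm and at Tl, with the SD of repeated spots as bars and dotted lines at 2-fold. Alas1, Alas2, and Lcn2 lay above 2-fold and Hmox1, Slc40a1, and Cp below it at Tm, and only Alas1 and Alas2 lay beyond it at Tl. The Tl change of both ferritin chains turned positive under quantile normalization and without scaling, that of Fth1 also under median scaling, and the Tm change of Ftl1 turned negative when the percentile was taken over probes detected on all arrays.

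The promoters of the ferritin genes are shown because both chains ran in parallel, and that of Alas2 because it had the largest change from Te of the 10 genes. The windows are the 150 bases before the start site in RefSeq (GRCm38.p6), where 8 of the 10 genes matched and Hmox1 and Slc40a1 did not. For Fth1 the table has 2 windows without naming their transcripts, and the downstream one is shown. Capitals mark the motifs searched on both strands, which were CCAAT, the Sp1 core GGGCGG, the GATA site AGATAA, and the TATA box TATAAA. No hits overlapped in the windows shown.
Fth1, chr19:9982496-9982645, plus strand: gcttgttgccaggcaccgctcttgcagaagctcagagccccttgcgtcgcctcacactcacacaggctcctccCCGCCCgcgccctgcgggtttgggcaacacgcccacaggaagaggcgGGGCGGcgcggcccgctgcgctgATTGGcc
Ftl1, chr7:45459887-45460036, minus strand: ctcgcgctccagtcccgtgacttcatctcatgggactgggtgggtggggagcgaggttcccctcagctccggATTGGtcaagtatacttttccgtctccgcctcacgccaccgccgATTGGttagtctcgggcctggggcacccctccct
Alas2, chrX:150547267-150547416, plus strand: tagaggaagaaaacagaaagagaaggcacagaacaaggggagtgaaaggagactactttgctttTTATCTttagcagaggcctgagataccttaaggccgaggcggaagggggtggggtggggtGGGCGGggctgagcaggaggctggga
CCAAT was found as its reverse complement ATTGG at 7 bases before the start of Fth1 and at 78 and 34 bases before that of Ftl1, and 24.5% of the 32851 windows of all genes held it. GGGCGG was found at 77 (reverse complement) and 30 bases before the start in Fth1 and at 26 bases in Alas2, and 28.6% of all windows held it. AGATAA was found in the Alas2 window as its reverse complement TTATCT at 86 bases before the start, and 5.65% of all windows held it. GATA1 is known to drive Alas2 in red cell precursors, but a match describes the letters only. TATAAA was in none of the 3 windows and in 7.57% of all.

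Iron export was represented by Slc40a1 and Cp. Slc40a1 encodes ferroportin, the only known iron exporter of mammalian cells, and Cp encodes ceruloplasmin, a copper oxidase that oxidizes the iron leaving through ferroportin. Slc40a1 had levels of −2.36 at Te, then −3.84 at Tm and −1.58 at Tl, from intensities of 80.7, 34.8, and 310. Cp had levels of 0.38, −1.94, and 0.18, from intensities of 538, 129, and 1051. Both genes were lowest at Tm, and there Slc40a1 was 2.78-fold and Cp 4.99-fold lower than at Te. At Tl, Slc40a1 was 1.71-fold higher than at Te, whereas Cp differed from Te by −0.20 (log2), little more than the spot error. Both Tl changes depended on the scaling. That of Slc40a1 passed 2-fold with median scaling (1.30), quantile normalization (1.23), and unscaled intensities (1.94). That of Cp turned to 0.32 with median scaling and 0.97 on unscaled intensities.

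The largest differences between the later arrays among the 10 genes were those of the export pair. Slc40a1 was 4.77-fold and Cp 4.35-fold higher at Tl than at Tm, which were 14.0 and 13.2 times the spot error. Of 14849 genes, 95 had a larger increase than Slc40a1 and 118 a larger increase than Cp. Both differences passed 2-fold under the same 10 alternatives, from 1.22 to 3.15 (log2) for Slc40a1 and from 1.62 to 3.02 for Cp. The Tm level of Slc40a1 lay only 0.21 (log2) above the lowest level detected on that array, and its difference from Te did not reach 2-fold with normexp background correction (−0.89), quantile normalization (−0.82), or median scaling (−0.92). The difference of Cp from Te at Tm passed 2-fold under all scalings and normexp, from −2.69 to −1.76. The other alternatives could not move it, or hardly so. Of 11 fibroblast markers with a value from Tm to Tl, 3 were higher (Pdgfrb, Lum, and Dpt) and 0 lower, and 3 had a negative change. Of 15 macrophage markers, 1 was higher (Mertk) and 0 lower. The shares of all genes were 7.85% and 11.3%. The part of other cells in the changes of Slc40a1 and Cp was not tested.

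Hmox1 encodes heme oxygenase 1, the inducible enzyme of heme breakdown. Its brightest probe had levels of 4.17 at Te, then 3.05 at Tm and 3.39 at Tl. The change from Te was −1.12 at Tm, or 2.17-fold lower, and −0.78 at Tl, or 1.71-fold lower. The other probe of Hmox1 had levels of 2.36, 1.84, and 2.36, with changes of −0.52 at Tm and −0.0029 at Tl. Both probes were lowest at Tm, but they disagreed on the size, and only the first passed 2-fold. With the median over the probes the change of Hmox1 at Tm was −0.82, with unscaled intensities −0.85, and with median scaling −0.56. Hmox2, the constitutive heme oxygenase, had changes of 0.01 at Tm and −0.06 at Tl.

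The heme uptake genes gave a mixed picture beside Hmox1. Cd163, the receptor for hemoglobin bound to haptoglobin, had levels of 4.18 at Te, then 2.99 at Tm and 2.63 at Tl, with changes of −1.19 and −1.55. Lrp1, the receptor for heme bound to hemopexin, had levels of 4.29, 3.26, and 3.26, with changes of −1.03 at both stages, just past 2-fold. Slc48a1, which carries heme out of the phagolysosome, had changes of 0.77 and 0.19. At Tm the brightest Hmox1 probe differed in its change by 0.07 from Cd163 and by −0.09 from Lrp1, both within the spot error. At Tl it lay 0.78 above Cd163 and 0.25 above Lrp1. The closeness at Tm holds for this probe only, as the other Hmox1 probe changed by −0.52 there. Cd163 is also a marker of tissue macrophages. Of the 15 measured macrophage markers, 2 were lower at Tm and 3 at Tl, beside 16.9% and 21.1% of all genes. Cd163 itself is counted at both stages.

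The first step of heme synthesis was represented by Alas1, the form used in all tissues, and Alas2, the form of red cell precursors. The brightest Alas1 probe had levels of 0.23 at Te, then 2.38 at Tm and 1.63 at Tl, which is 4.42-fold higher at Tm and 2.63-fold higher at Tl. The other probe of Alas1, assigned to the same transcript, had levels of −0.30, −0.97, and −1.35, or changes of −0.68 and −1.06. The probes thus gave opposite directions at both stages. With the median over the probes, Alas1 changed by 0.74 at Tm and 0.17 at Tl, neither of which reached 2-fold. The direction of Alas1 is therefore not settled by these arrays.

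Alas2 had levels of −4.09 at Te, then −1.16 at Tm and −3.02 at Tl, from intensities of 24.4, 222, and 114. It was dim at Te, where it lay 0.41 (log2) above the lowest level detected, and it was 7.59-fold higher at Tm and 2.09-fold higher at Tl. At Tm, 316 of 15843 genes had a larger increase. The difference at Tm passed 2-fold under all 10 alternatives, from 1.45 to 3.75 (log2), whereas that at Tl turned to −0.09 with normexp background correction and was 0.86 with the percentile over probes detected on all arrays. Alas2 was 3.63-fold lower at Tl than at Tm, short of 2-fold only on unscaled intensities (−0.96).

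Alas2 was compared with markers of red cells. The globin gene Hba-a1 had levels of 3.63 at Te, then 4.90 at Tm and 3.05 at Tl, and Hba-a2 had levels of 3.92, 5.18, and 3.36. Hbb-b2 had levels of 2.35, 3.66, and 2.36, and Hbb-bt 0.22, 2.31, and 0.88. These near-identical genes share sequence, so their probes may not be independent. All 4 globin genes were highest at Tm, as was Alas2. From Tm to Tl the change of Alas2 (−1.86) differed by −0.0069 from that of Hba-a1 and by −0.04 from that of Hba-a2, less than the spot error, and by −0.56 and −0.43 from those of Hbb-b2 and Hbb-bt. From Te to Tm Alas2 exceeded Hba-a1, Hba-a2, and Hbb-b2 by 1.61 to 1.66 and Hbb-bt by 0.84. Of 15 red cell markers on the array, 9 were well above background at Te, then 9 at Tm and 11 at Tl. Their summed signal was 56.1, 92.5, and 34.5 times the 75th percentile and 22.4, 8.80, and 9.04 without the globin genes. Most of the sum without the globin genes came from Ermap, whose probes disagreed in the direction of change from Te at Tm and at Tl. Of 10 red cell markers with a value at Tm, 5 were higher than at Te and 4 lower. The higher ones were the globin genes and Rhd, a membrane gene of red cells that was detected only at Tm, with a change of at least 1.44 from Te and of −2.04 or lower from Tm to Tl. Sptb, a spectrin of the red cell membrane, changed by 0.91 at Tm and 0.73 at Tl. The membrane genes Epb42 and Rhag did not exceed background on the 3 arrays. Slc4a1, the anion exchanger of red cells, changed by −1.34 at Tm and −1.26 at Tl, and Gata1 changed by −1.44 and −0.90. Epor, not well above background at Tm, changed by −2.13 or lower at Tm and by −1.82 at Tl. The brightest Ermap probe changed by −1.40 at both stages. The part of red cell RNA in the change of Alas2 was not tested.

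**Figure D3:**
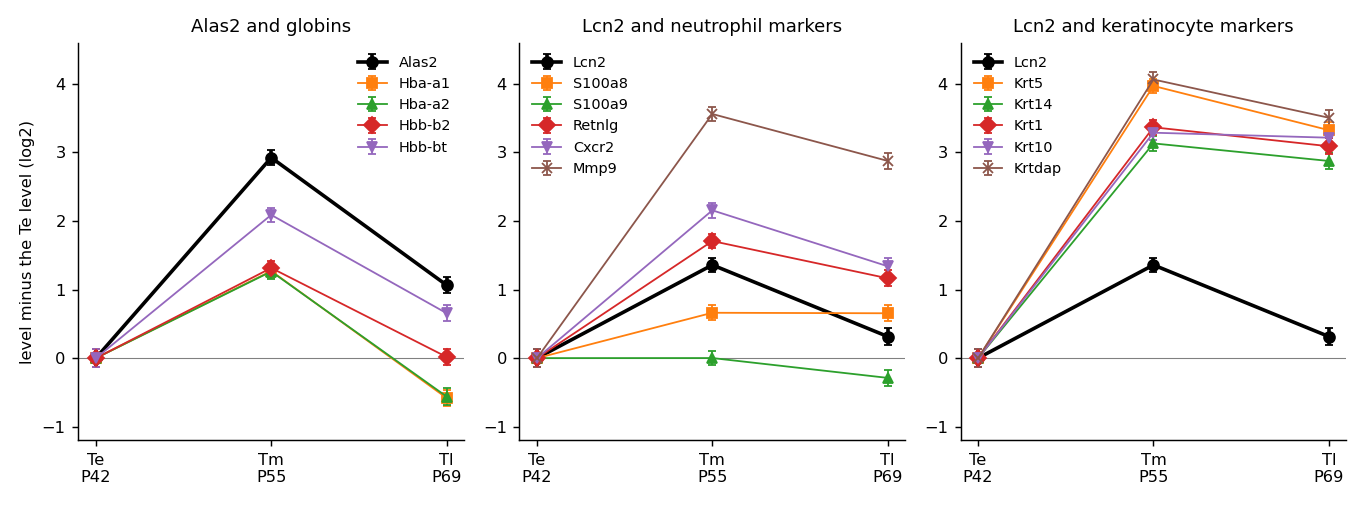
Change of level from Te (log2, bars are the SD of repeated spots, 1 array per stage) of Alas2 with 4 globin genes, and of Lcn2 with neutrophil and keratinocyte markers. Alas2 and the globin genes were highest at Tm and ran in parallel from Tm to Tl for Hba-a1 and Hba-a2. The markers shown are examples. Of 10 red cell markers with a value at Tm, 4 were lower than at Te and are not shown (Epor, Gata1, Slc4a1, and the brightest probe of Ermap). Of 9 neutrophil markers with a value, 3 had a negative change from Te at Tm and 4 at Tl. Csf3r, Mmp8, and Ngp were among these at both stages and are not shown. Of all 15 keratinocyte markers 12 had a negative change from Tm to Tl, from −1.29 (Sfn) to 1.13 (Lor), beside −1.04 for Lcn2.

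Lcn2 encodes lipocalin 2, which binds bacterial siderophores and withholds their iron, and it is made by neutrophils, macrophages, and inflamed epithelium. Its levels were 1.33 at Te, then 2.69 at Tm and 1.64 at Tl. It was 2.56-fold higher at Tm than at Te and 2.06-fold lower at Tl than at Tm, and Tl differed from Te by 0.32 (log2). The difference at Tm was just short of 2-fold with the percentile over probes detected on all arrays (0.99) and with quantile normalization (0.92), and that from Tm to Tl was short of 2-fold under 3 of the 10 alternatives. The receptor gene of lipocalin 2, Slc22a17, had changes of 1.28 at Tm and 1.12 at Tl.

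Markers of other cells that make Lcn2 were examined on the same arrays. Of 13 neutrophil markers on the array, 8 were well above background at Te, then 8 at Tm and 10 at Tl, with a summed signal of 89.8, 88.2, and 65.8 times the 75th percentile. This full sum was highest at Te, and most of it came from Csf3r. Without Csf3r the sum was 7.59, 36.4, and 23.5, highest at Tm. Of the markers left in it, only Mmp9, Retnlg, and Cxcr2 lay above the 75th percentile, and they did so on all arrays. Of 9 neutrophil markers with a value at each later stage, 3 were higher and 0 lower at Tm. At Tl, 3 were higher and 2 lower. S100a8 and S100a9, abundant in neutrophils, had changes of 0.66 and 0.0010 at Tm and of 0.65 and −0.29 at Tl, and Elane was not detected above background on the 3 arrays. Mmp9, Cxcr2, and Retnlg were higher at both stages, by 3.56, 2.16, and 1.71 at Tm. Gr1-positive cells, which include neutrophils, had been gated out. Of 15 keratinocyte markers, 14 were well above background at Te and 15 at each later stage, and 12 were higher at Tm and 11 at Tl, with median changes of 3.30 and 3.09. Their summed signal was 278, 404, and 272 times the 75th percentile, but 1 gene, Trp63, carried most of it, and without Trp63 it was 16.8, 141, and 109. Krt5 and Krt14, the keratins of basal keratinocytes, had changes of 3.97 and 3.13 at Tm and of 3.32 and 2.88 at Tl. The part of these cells in the change of Lcn2 was not tested.

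The other genes of the pathway were examined as lists of genes with a known role. Over the 5 lists of iron and heme genes, 25 of 59 genes with a value were higher and 10 lower at Tm, and 16 of 60 were higher and 9 lower at Tl, beside the shares of all genes given above. Of 15606 genes with a value on both later arrays, 16.6% were higher on both and 11.3% lower on both. As the comparisons share the Te array, genes higher on both rest on 1 Te value.

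Heme synthesis had 12 measured genes besides Alas1 and Alas2. Of these, 9 were higher at Tm with a median change of 1.18, beside 29.2% of all genes. At Tl, 5 were higher with a median of 0.76, beside 22.3%. At both stages 0 were lower, beside 16.9% and 21.1% of all genes. Under the alternatives the number of higher genes ranged from 5 to 11 at Tm and from 4 to 11 at Tl, and none gave a lower gene. The largest counts came with median scaling at Tm and unscaled intensities at Tl, where 46.1% and 60.2% of all genes were higher. Relative to the median of all genes, the list median was 0.95 at Tm and 0.61 at Tl, ranging from 0.79 to 1.08 and from 0.39 to 0.83. On the same arrays the keratinocyte markers and, at Tm, the globin genes were higher as well, and the part of other cells in these changes was not tested. Uros, the synthase of uroporphyrinogen, had levels of −3.52 at Te, then −0.23 at Tm and −0.91 at Tl, with changes of 3.29 and 2.61. Cpox, which makes protoporphyrinogen, had changes of 1.79 and 2.10. Abcb10 and Tmem14c, mitochondrial membrane proteins needed for heme synthesis in red cell precursors, had changes of 1.75 and 2.56 at Tm and of 1.22 and 1.15 at Tl. Clpx, a mitochondrial unfoldase that acts on ALAS, had changes of 1.25 and 1.57. The last enzyme, Fech, inserts the iron and had changes of 1.09 at Tm and 0.75 at Tl, and Ppox was the only gene of the list with a negative change at Tm (−0.61).

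Of the 12 genes of iron storage and chaperones, 7 were higher and 2 lower at Tm (median 1.08), beside 29.2% and 16.9% of all genes. At Tl, 4 were higher and 2 lower (median 0.65), beside 22.3% and 21.1%. Under the alternatives the number of higher genes ranged from 3 to 8 at Tm and from 3 to 10 at Tl. Iscu and Nfs1, the scaffold and the sulfur donor of iron-sulfur cluster assembly, had changes of 2.41 and 1.22 at Tm and of 1.53 and 1.32 at Tl. Mitochondrial ferritin, Ftmt, had changes of −1.39 and −1.94. Slc25a37, which carries iron into mitochondria, had changes of −1.55 and −1.42 on its brightest probe, but its probes disagreed in direction.

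Iron uptake and release had 11 genes with a value. Of these, 3 were higher and 3 lower at Tm (median 0.10), beside 29.2% and 16.9% of all genes. At Tl, 3 were higher and 2 lower (median 0.15), beside 22.3% and 21.1%. The sign of these medians depended on the processing, with a range from −0.28 to 0.84 at Tm and from −0.05 to 1.32 at Tl. Tfr2, the second transferrin receptor, was not well above background at Te and was at least 8.02-fold higher at Tm and at least 5.06-fold higher at Tl, whereas the probes of Tfrc had negative changes. Ltf, lactoferrin of neutrophil granules and secretions, had changes of −2.52 and −2.34. Heph, a copper oxidase related to Cp, had changes of −1.38 and −1.65, with probes that disagreed at Tl. Cp changed by −0.20 at Tl, a value that depended on the scaling.

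Of the 11 measured genes of heme uptake, transport, and breakdown, 3 were higher and 3 lower at Tm (median 0.61), beside 29.2% and 16.9% of all genes. At Tl, 3 were higher and 2 lower (median 0.19), beside 22.3% and 21.1%. Under the alternatives the median ranged from 0.24 to 1.17 at Tm and from −0.02 to 1.35 at Tl. Haptoglobin, Hp, which binds free hemoglobin, had changes of 1.56 and 1.13, in the opposite direction to its receptor Cd163. Pgrmc1, a heme-binding membrane protein, had changes of 1.29 and 1.83.

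Of the genes that control this system, 13 had a value at Tm. Of these, 3 were higher and 2 lower (median −0.39), beside 29.2% and 16.9% of all genes. Of 14 at Tl, 1 was higher and 3 were lower (median −0.10), beside 22.3% and 21.1%. The sign of these medians depended on the processing, with a range from −0.62 to 0.09 at Tm and from −0.30 to 1.26 at Tl. Bach1, the heme-sensitive repressor of Hmox1 and of the ferritin genes, had levels of 2.41 at Te, then 1.17 at Tm and 1.54 at Tl, with changes of −1.24 and −0.87. Nfe2l2, which encodes the activator NRF2, had changes of 0.37 and 0.54. Spic, needed for red pulp macrophages that recycle iron, had changes of −0.90 and −0.26. Ireb2, which encodes an iron regulatory protein that binds ferritin and Tfrc transcripts, had changes of −1.14 and 0.07. Bach1, Nfe2l2, Spic, and Ireb2 were chosen for their roles after their values were seen. Hepcidin, Hamp, the hormone that removes ferroportin from the cell surface, stayed at background on all 3 arrays.

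Hmox1 shares its activator NRF2 with genes outside iron handling. Of 11 such genes with a value, 6 were higher at Tm (median 1.28), beside 29.2% of all genes. At Tl, 5 were higher (median 0.93), beside 22.3%, and 0 were lower at either stage, beside 16.9% and 21.1%. Gsr, glutathione reductase, had changes of 1.97 and 1.84. The changes of Hmox1 at the same stages were −1.12 and −0.78 on its brightest probe. Under the 10 alternatives Hmox1 ranged from −1.60 to −0.56 at Tm and from −0.98 to 0.39 at Tl, where its other probe had −0.0029. The list median ranged from 0.90 to 1.84 at Tm and from 0.72 to 2.09 at Tl. Relative to the median of all genes, which scaling also moves, it was 1.06 and 0.78, ranging from 0.58 to 1.28 and from 0.65 to 0.85. Keratinocyte markers were higher on the same arrays, and the part of other cells in these changes was not tested.

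**Figure D4:**
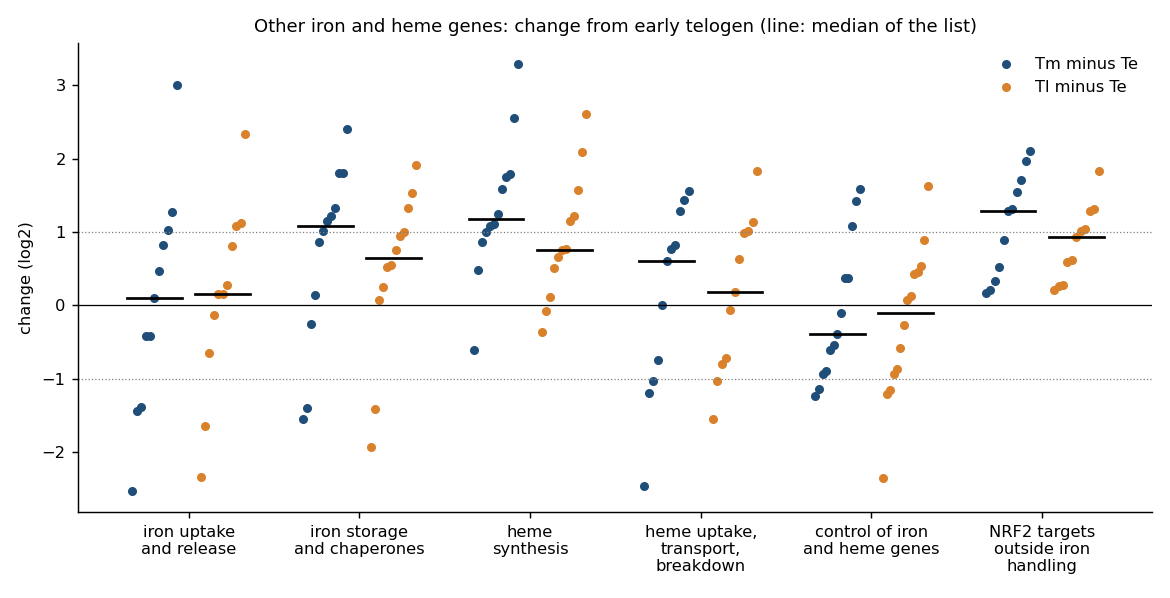
Change from Te (log2) at Tm and at Tl of the other measured genes in 6 lists of the pathway. Each point is 1 gene, Tfr2 and some dim genes at a lower bound, horizontal lines are list medians, and dotted lines mark 2-fold. The medians of heme synthesis at 1.18 and 0.76 and of NRF2 targets at 1.28 and 0.93 lay above 0 at both stages. That of the control genes was −0.39 and −0.10. Under some alternatives the sign turned for the medians of the control genes and of iron uptake and release at both stages. That of heme uptake, transport, and breakdown turned at Tl.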

How the data were processed

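Gene expression was measured on Agilent mouse arrays in 1 color (Cy3), 1 per stage, each from RNA of 3 pooled littermates after whole transcriptome amplification. The authors deposited spot intensities on the linear scale, background-corrected and detrended by Feature Extraction 10.7.3.1 and not normalized between arrays, with the software's flags (0 or 1). They also deposited a table of log2 values for 36409 probes, centered on the median of each probe, whose normalization is not given in the sources used here. Set against the scanner files, its scaling equals the 75th percentile within 0.004 (log2), with the columns of Tm and Tl exchanged (correlation of columns of the same name 0.729). Its centering hides absolute levels.

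From the deposited intensities, control and outlier spots (162 at Te, 274 at Tm, and 281 at Tl) were left out, log2 intensities were averaged per probe, and the 75th percentile of the array was subtracted. No spot was saturated. Detection required a well-above-background flag on a share of 0.5 or more of the spots. Where only 1 of both arrays detected a probe, the fold is a lower bound, for which the undetected side was set to the higher of its own level and the lowest detected level of its array. Probes were named through RefSeq transcripts (26056 of 55681 probes, 19752 genes), and the brightest probe on average stood for its gene. Genes that differ by 2-fold or more are counted beside the share of all genes, and the methods of the study use 10-fold. No p-values are given, and the number of arrays limits the precision. The spot error is the median SD over detected probes with 10 or more spots (217 at Te, 145 at Tm, and 160 at Tl). The early stage was taken from the sample labels (day 42), and the paper gives a slightly later day.

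The genes named are the 10 genes with all their probes and the pathway genes changed by 2-fold or more in the same direction on both later arrays, at most 12 in each direction by the smaller change. Values of cell type markers, and of Fech, Ppox, Hmox2, Slc48a1, Bach1, Nfe2l2, Spic, Ireb2, and Hamp, are given besides and were chosen for their roles after their values were seen. The NRF2 targets other than Gsr were likewise added after their values were seen. The genes and lists were chosen with earlier results of these data known. Alternatives were other scalings (the percentile over probes detected on all arrays, median, quantile, none), normexp background correction (limma 3.58.1 in R 4.3.3, offset 50), the authors' table, other filters on dim probes, inclusion of outlier spots, the median of all probes per gene, and a 10-fold threshold. The exchange of Tm and Tl was chosen after seeing the data. The calculations (Python 3.11.15, numpy 2.4.6, pandas 2.3.3) were tested on simulated data.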

Additional observations from a re-analysis of the deposited data

How the results depend on the processing

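Each alternative changed 1 choice, except the authors' log2 table, which also holds fewer genes (6 of the 10 genes and 55 pathway genes) and centers each probe. The log2 table, and the later arrays exchanged, turned the direction of genes that differ between these arrays. Slc40a1 changed by 0.78 at Tm with the table and with the exchange. From Tm to Tl the table had −2.25 for Slc40a1, −2.12 for Cp, 1.86 for Alas2, and 1.05 for Lcn2, and the exchange had −2.25, −2.12, 1.86, and 1.04. With the exchange 0 of the 10 genes were lower at Tm and 3 at Tl, and of the 6 genes that the table holds, 0 were lower at Tm and 3 at Tl. Alas2 at Tl was −0.0876 with normexp. At 10-fold, 0 of the 10 genes and 0 of the pathway genes differed in any comparison. Of the 10 genes, 1 was higher at Tl with the percentile over detected probes, with normexp, and with the median over probes, and 4 without scaling. With median scaling 1 was lower at Tm. From Tm to Tl, 4 were higher and 0 lower without scaling, and 1 was lower with quantile normalization and with the percentile over detected probes. Pathway genes higher numbered 17 at Tm and 13 at Tl with the percentile over detected probes, and at Tl 37 with median scaling and 54 without scaling. Pathway genes lower numbered 2 at Tm and 5 at Tl with median scaling, 6 at Tm with quantile normalization, 6 at Tm and 2 at Tl without scaling, 5 at Tm with normexp, and 14 of 55 at Tl in the table. These pathway counts include the NRF2 targets and were 31 higher and 10 lower at Tm and 21 and 9 at Tl with the reported settings. From Tm to Tl, 5 pathway genes were higher and 4 lower, against 25 and 0 without scaling, 2 higher with normexp, and 7 of 55 lower in the table. The cause of these differences was not tested.

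Scaling moved the whole array. Of all genes called, 63.4% were higher at Tm and 51.3% at Tl, against 43.0% and 39.4% with the percentile over detected probes, 85.5% and 78.5% with median scaling, 67.3% at Tl with quantile normalization, and 75.7% and 94.1% without scaling. Between Tm and Tl, 41.0% of all genes called were higher, against 58.9% with the percentile over detected probes, 94.97% without scaling, and 27.9% with normexp. Over all genes, 4626 were higher and 2674 lower at Tm, ranging from 3100 to 7027 and from 1196 to 4526, and 3604 and 3421 at Tl, ranging from 2469 to 9741 and from 610 to 4528. From Tm to Tl the numbers were 1166 and 1676, ranging from 471 to 5589 and from 296 to 2366. At 10-fold they were 180 and 50 at Tm, 111 and 82 at Tl, and 8 and 29 from Tm to Tl. The median change of all genes ranged from −0.16 to 0.86 at Tm and from −0.08 to 1.31 at Tl. The median of the 10 genes relative to all genes was −0.31 at Tm and −0.49 at Tl and ranged from −0.61 to −0.18 and from −0.54 to −0.18.

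Slc40a1 at Tm and Alas2 at Te lay close to the background, and the probes of Alas1 disagreed. The scanner files hold no column of gene symbols, so naming of probes by such a column was not run. No paired analysis was possible because each stage has 1 array and the arrays share no replicate number in the labels.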
